A study of Mus musculus with 12 samples.

Results

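Polycomb repressive complex 2 (PRC2) and its partners were followed through 10 genes: the catalytic subunits Ezh1 and Ezh2, the core subunits Eed and Suz12, the accessory subunits Jarid2, Mtf2 and Phf19, the polycomb complex 1 genes Cbx7 and Bmi1, and the demethylase gene Kdm6b. The members were chosen by symbol, and all probe sets that carry only that symbol in the platform annotation were taken. All 10 genes were found, through 32 of the 45101 probe sets of the array, out of 18193 genes in all. Transcript levels came from 12 Affymetrix arrays of TBV2 (129/SvP) cells, a wild-type mouse embryonic stem (ES) cell line, so all values describe 1 line. The proline group, called PiCs in the labels, had 500 µM L-proline for 5 days, and the control group, called ESCs, had no addition. Both groups were grown in medium with leukemia inhibitory factor (LIF) and without non-essential amino acids, at low density on gelatin and without feeder cells. Each group holds 2 biological replicates with 3 arrays each, and the arrays of a biological replicate were averaged before any test, so n = 2 per group.

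PRC2 methylates lysine 27 of histone H3, and the trimethylated form, H3K27me3, marks silent developmental genes in ES cells. EZH1 or EZH2 carries the SET domain that adds the methyl groups, SUZ12 is the scaffold, and EED binds the finished mark and stimulates the enzyme. Accessory subunits split the complex into forms: MTF2, PHF19 or PHF1 with EPOP belong to the form called PRC2.1, JARID2 and AEBP2 to the form called PRC2.2. In canonical PRC1, CBX7 reads the mark and BMI1 is a ring-finger partner of the ubiquitin ligase RNF2. The demethylase KDM6B, which belongs to neither complex, removes the methyl groups. ES cells without PRC2 can still self-renew but differentiate poorly.

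Promoter sequence is shown for the core and accessory subunits on which the comparison turns, 3 with separated arrays and 2 with overlapping arrays. RefSeq starts of assembly GRCm38.p6 were available for 9 of the 10 members (Jarid2 and Mtf2 had 2 starts each, and the more upstream one is printed). Each line holds the 200 bases before the start, read 5′ to 3′ on the gene's strand. Capitals mark matches to any of 9 short motifs on either strand: the GC box GGGCGG, the CCAAT box, the TATA box with letters TATAAA, the E-box with letters CACGTG, an ETS motif CCGGAAG, the E2F motifs TTTGGCGC and, as a second form, TTTCCCGC, an NRF1 core CGCATGCG and a YY1 motif AAGATGG.
Eed, chr7:89980977-89981176, minus strand: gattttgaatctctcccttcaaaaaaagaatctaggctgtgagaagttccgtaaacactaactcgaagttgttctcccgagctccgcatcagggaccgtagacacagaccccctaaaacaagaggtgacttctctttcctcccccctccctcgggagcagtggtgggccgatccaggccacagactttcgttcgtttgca
Jarid2, chr13:44730574-44730773, plus strand: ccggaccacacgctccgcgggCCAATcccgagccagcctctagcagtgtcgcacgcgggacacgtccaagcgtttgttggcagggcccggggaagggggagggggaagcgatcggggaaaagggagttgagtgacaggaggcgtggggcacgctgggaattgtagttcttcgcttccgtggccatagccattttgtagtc
Mtf2, chr5:108065474-108065673, plus strand: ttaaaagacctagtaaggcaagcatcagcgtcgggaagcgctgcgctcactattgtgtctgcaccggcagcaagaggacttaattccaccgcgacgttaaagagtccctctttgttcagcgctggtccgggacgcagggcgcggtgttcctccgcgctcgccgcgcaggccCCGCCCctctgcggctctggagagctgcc
Ezh2, chr6:47595031-47595230, minus strand: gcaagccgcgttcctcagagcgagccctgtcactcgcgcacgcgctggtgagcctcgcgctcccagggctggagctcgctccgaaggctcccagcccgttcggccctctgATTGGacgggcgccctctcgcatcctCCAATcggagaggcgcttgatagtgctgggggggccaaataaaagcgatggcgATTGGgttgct
Suz12, chr11:79992906-79993105, plus strand: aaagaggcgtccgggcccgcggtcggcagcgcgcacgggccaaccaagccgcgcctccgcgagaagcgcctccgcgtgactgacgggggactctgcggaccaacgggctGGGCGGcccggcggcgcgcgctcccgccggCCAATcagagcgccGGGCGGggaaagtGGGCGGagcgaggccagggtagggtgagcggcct

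The Eed window held none of the 9 motifs and the fewest CG dinucleotides of the 5 sequences, with 9 against a median of 5 over 32843 promoters. The GC box stood once in the window of Mtf2 and 3 times in that of Suz12. CCAAT, read on either strand, stood once in Jarid2 and in Suz12 and 3 times in Ezh2, where the copies began 90, 64 and 11 bases before the start. The GC box is found in 31.1% of all such windows and CCAAT in 29.4%. The windows of the other members, Ezh1, Phf19, Cbx7 and Bmi1, held 0, 2, 2 and 1 kinds of motif, with the GC box in the last 3. The second start of Jarid2 had a TATA box and that of Mtf2 a CCAAT box. A match is a stretch of letters and not a shown binding site.

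In the comparison of proline with control, which asks what the amino acid does to cells held in LIF, Eed, Jarid2 and Mtf2 had lower signals after proline, at 58.9%, 57.3% and 64.7% of the control level. The other 7 members lay between 91.5% and 107% of control. None of the 10 members passed an adjusted p of 0.05 in limma, over all genes, against 4.36% of all genes, and 3 were under an unadjusted threshold of 0.05, against 22.1% of all genes. All 3 were in the lower direction, which 9.32% of genes shared at that threshold. No member had a mean signal under the 40th percentile of all probe sets. In a fit without genes under that level, 3295 of 12762 genes were under the unadjusted threshold, as were 3 of the members. The members' median log2 difference was -0.08, beside -0.03 over all genes.

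**Figure D1:**
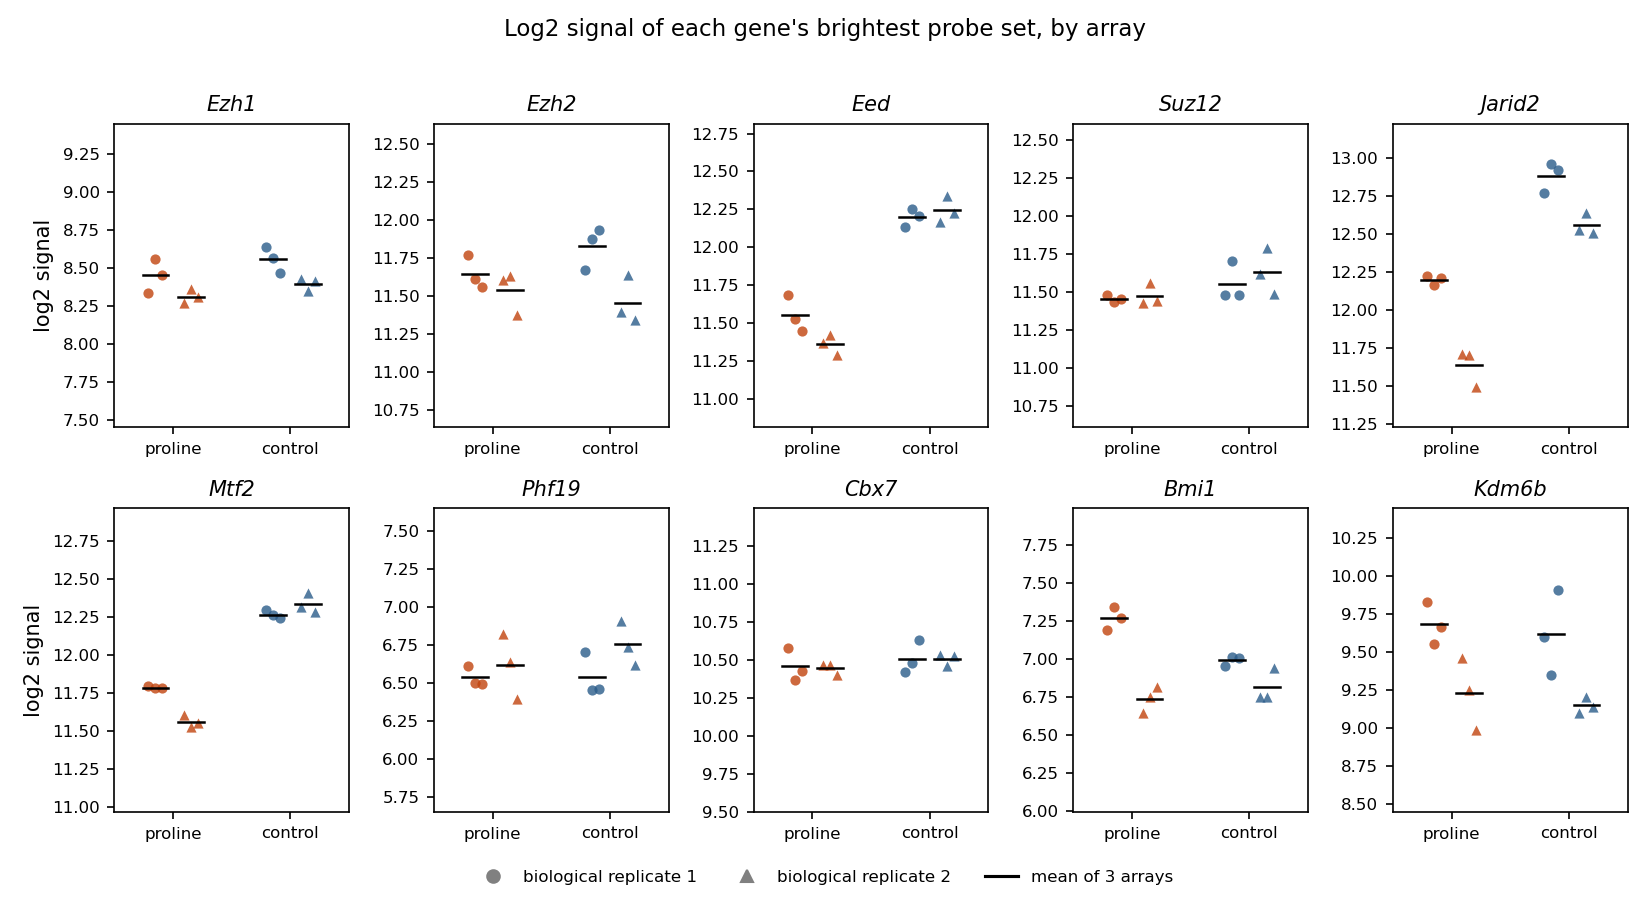
Log2 signal of the brightest probe set of each of the 10 genes on all 12 arrays (vertical axis, log2 units, every panel spanning the same range), with proline arrays on the left and control arrays on the right of each panel, circles for biological replicate 1, triangles for biological replicate 2 and bars for the mean of 3 arrays. The proline arrays of Eed, Jarid2 and Mtf2 sit below all control arrays, and the arrays of the other 7 genes overlap.

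Ezh2, the main methyltransferase of proliferating cells, is read by 1 probe set. Its log2 signal ran over the 6 proline arrays from 11.37 to 11.77, with a median of 11.61, and over the 6 control arrays from 11.34 to 11.93, with a median of 11.65. The arrays overlap throughout, and control replicate 2 minus control replicate 1 was -0.37, further apart than the groups. The log2 difference, proline minus control, was -0.05 ± 0.17 (limma's moderated SE, n = 2 per group, adjusted p = 0.916). Its 95% interval of -0.49 to 0.39 leaves room for changes of either sign, so similar Ezh2 levels are not shown.

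Ezh1, the less active paralog of Ezh2, averaged 8.38 ± 0.10 after proline and 8.48 ± 0.11 in controls (log2 signal, SD, n = 2 each). The log2 difference was -0.10 ± 0.13 (adjusted p = 0.755, 95% interval -0.44 to 0.25). Of its 4 probe sets, 2 had a mean signal under the 40th percentile of all probe sets (log2 5.36). Probe sets below this level are called dim here, since they may read little beyond background. All 4 gave log2 differences between -0.15 and -0.07.

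Eed encodes the subunit that reads H3K27me3. Its bright probe set read between 11.29 and 11.68 on the 6 proline arrays, with a median of 11.44, and between 12.14 and 12.34 on the 6 control arrays, with a median of 12.22 (log2 signal). The highest proline array lay below the lowest control array, a separation in this direction that 10.8% of all genes showed. The biological replicates averaged 11.55 and 11.36 after proline and 12.20 and 12.25 in controls, and over the 4 pairs of replicates the difference ran from -0.88 to -0.64. The log2 difference was -0.76 ± 0.13, a 1.70-fold lower signal, with a 95% interval of -1.10 to -0.43. Its adjusted p of 0.0521 in limma just missed the threshold. The other Eed probe set is dim and measured -0.37 ± 0.17, with overlapping arrays.

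Suz12, the scaffold that Eed and the catalytic subunit assemble on, has 6 probe sets, and the brightest is of the _s_at kind that can match several transcripts. The brightest read between 11.43 and 11.56 on the proline arrays, with a median of 11.45, and between 11.48 and 11.79 on the control arrays, with a median of 11.55 (log2 signal). The groups overlap, and the log2 difference was -0.13 ± 0.11 (adjusted p = 0.606, 95% interval -0.42 to 0.17). Over the 6 probe sets the difference ran from -0.13 to 0.05, with 4 below 0 and 2 above.

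Within the core complex, the signal of Eed was also set against those of Suz12 and Ezh2 on the same arrays. Signals of different probe sets are not on a common scale, so that only the change of such a difference between groups can be read. The Eed minus Suz12 difference was 0.10 and -0.12 in the 2 proline replicates, against 0.64 and 0.61 in the 2 control replicates (log2), or -0.64 between the group means. Between the same means, Eed minus Ezh2 was -0.72 and Suz12 minus Ezh2 was -0.08. These are 3 of 8 pairs of genes, which were chosen after their values were seen and are given without a test, and an exact permutation test of 2 against 2 values cannot go below p = 0.333.

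Jarid2, a catalytically inactive Jumonji protein that recruits PRC2 and defines PRC2.2, has 3 probe sets, and all 3 had every proline array below every control array. The brightest is of the _s_at kind that can match several transcripts. The brightest read between 11.50 and 12.22 on the proline arrays, with a median of 11.94, and between 12.51 and 12.96 on the control arrays, with a median of 12.70 (log2 signal). The proline replicates stood apart, at 12.20 and 11.64, while the control replicates were at 12.88 and 12.56, and in both groups replicate 2 was the lower one. The log2 difference was -0.80 ± 0.24 (adjusted p = 0.153, 95% interval -1.44 to -0.17), or 1.75-fold lower. The other probe sets had smaller errors and gave -0.66 ± 0.13 and -0.88 ± 0.16 in the fit of all probe sets. On these, control replicate 2 was the higher one, by 0.03 and 0.35, so the probe sets disagree on the shift between control replicates. The value of -0.88 came from the probe set that is not of the _s_at kind.

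Mtf2, also called Pcl2, is a Tudor-domain protein that binds CG-rich DNA and brings PRC2.1 to it. Its brightest probe set read between 11.53 and 11.80 on the proline arrays, with a median of 11.69, and between 12.24 and 12.41 on the control arrays, with a median of 12.29 (log2 signal). No array of one group reached the range of the other. The biological replicates averaged 11.79 and 11.56 after proline and 12.27 and 12.34 in controls. The log2 difference was -0.63 ± 0.13 (adjusted p = 0.0819, 95% interval -0.98 to -0.28), 1.55-fold lower. All 6 probe sets measured below 0, from -0.63 to -0.27, and 4 of them had separated arrays. The remaining pair measured -0.27 ± 0.18 and, for the dim one, -0.36 ± 0.20.

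Phf19, the Mtf2 paralog also called Pcl3, averaged 6.58 ± 0.06 after proline and 6.65 ± 0.15 in controls (log2 signal, SD, n = 2 each). Both of its probe sets overlapped between groups, at -0.07 ± 0.13 and -0.08 ± 0.11 in the fit of all probe sets. In the fit of genes the adjusted p was 0.833 and the 95% interval -0.42 to 0.28.

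Cbx7, the main reader of H3K27me3 in the PRC1 of ES cells, averaged 10.45 ± 0.01 after proline and 10.51 ± 0.002 in controls (log2 signal, SD, n = 2 each). Its log2 difference of -0.06 ± 0.11 (adjusted p = 0.836, 95% interval -0.34 to 0.23) came from the tightest replicates of the 10 members, and its other probe sets, 1 of them dim, measured -0.15 ± 0.23 and -0.19 ± 0.12. Bmi1, which is known as a repressor of the Cdkn2a locus in other cell types, measured 0.10 ± 0.21 (adjusted p = 0.853, 95% interval -0.47 to 0.67). Proline replicates of Bmi1 were at 7.27 and 6.73, on both sides of the control replicates at 6.99 and 6.81. The other Bmi1 probe set is dim and measured 0.44 ± 0.44.

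Kdm6b, the gene of an H3K27 demethylase also called Jmjd3, was read at 9.68 and 9.23 in the proline replicates and at 9.62 and 9.15 in the control replicates (log2 signal). Replicate 2 minus replicate 1 was -0.45 after proline and -0.47 in controls, so the replicates differed more than the groups. The log2 difference was 0.07 ± 0.24 (adjusted p = 0.909, 95% interval -0.56 to 0.71). This probe set has the suffix _x_at, which marks probes that may also match other transcripts. The other Kdm6b probe sets gave 0.21 ± 0.41 and -0.12 ± 0.37, of opposite sign.

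Taking each of the 32 probe sets by itself, 26 measured below 0, and the share below 0 over all probe sets is not given here. By gene, each read by its brightest probe set, 8 of the 10 members measured below 0, beside 10198 of the 18193 genes. All proline arrays lay below all control arrays for 8 of the 32, against 9.08% of the 45037 probe sets tested. All 8 belong to Eed, Jarid2 and Mtf2, and probe sets of a gene share its transcripts and are not independent. None of the 32 passed in limma after adjustment over all probe sets, where 0.0999% passed, and the smallest adjusted p among them was 0.0863, for Eed.

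**Figure D2:**
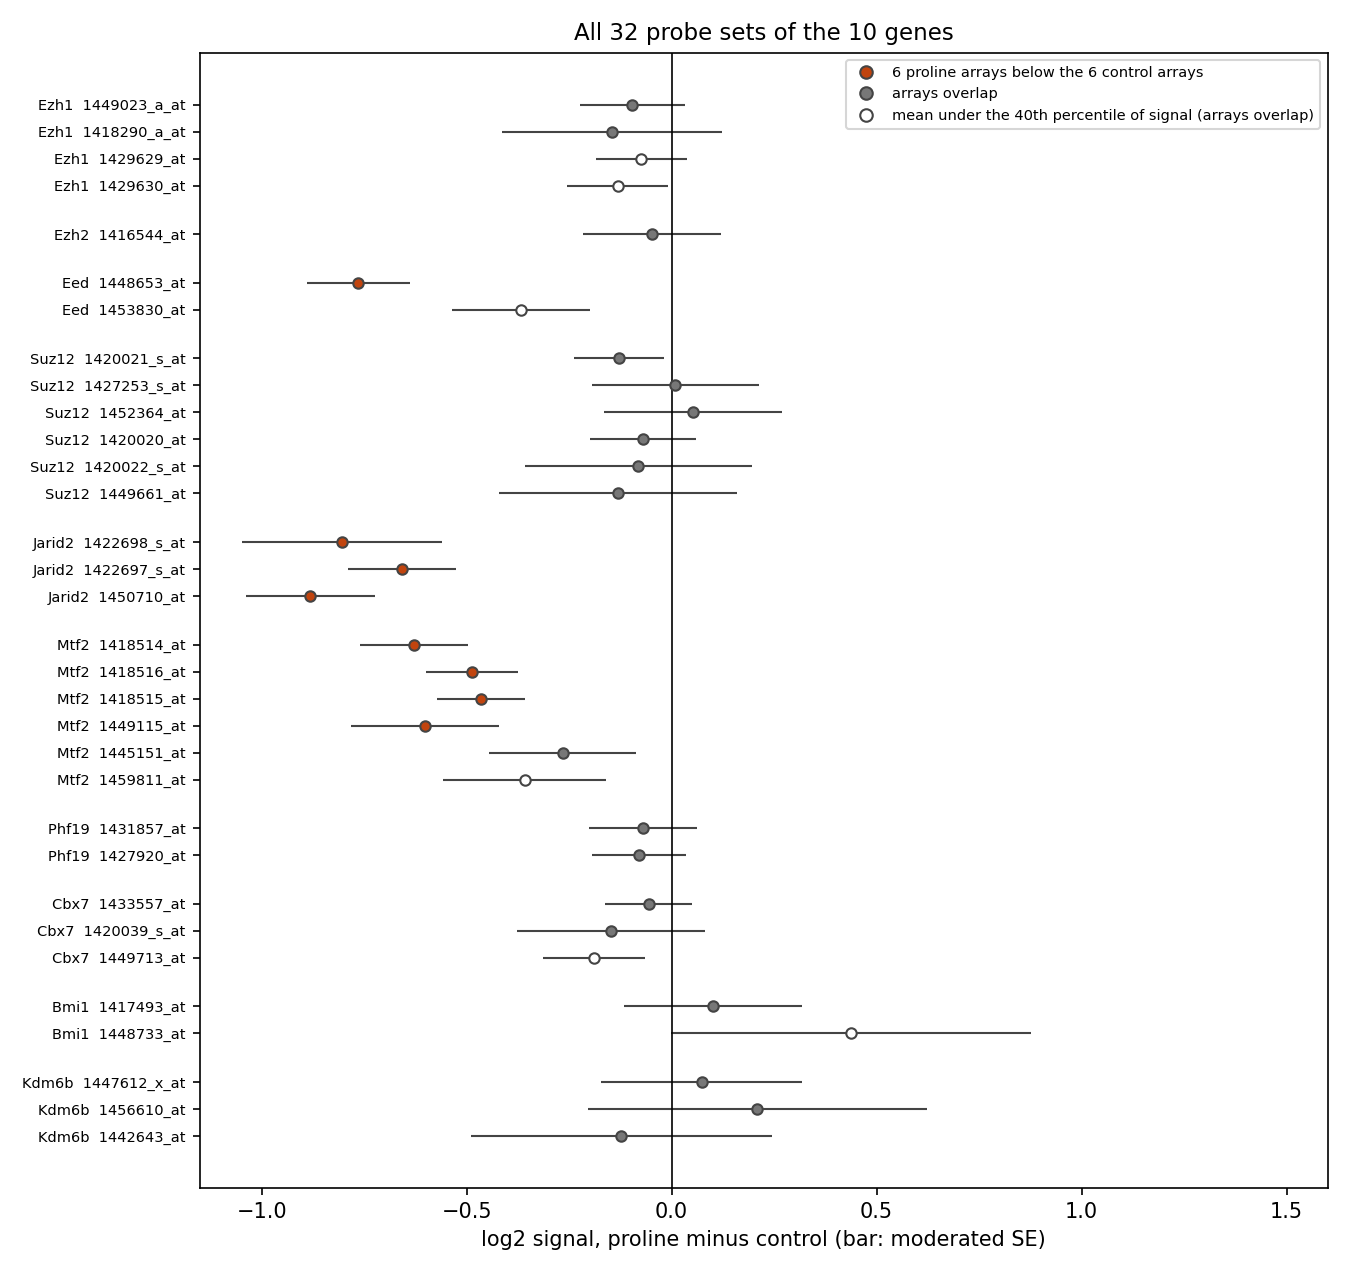
Log2 difference, proline minus control (horizontal axis), of all 32 probe sets of the 10 genes, grouped by gene, with bars for the moderated SE from limma on 2 biological replicates per group. Orange points, with all 6 proline arrays below all 6 control arrays, belong to Eed, Jarid2 and Mtf2, grey points overlap, and white points have a mean signal under the 40th percentile.

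Other subunits of PRC2 were read from a list of 7 genes, all measured, of which 1 fell, 0 rose and 6 did not pass. Epop, which joins PRC2.1 to Elongin B and C, was at 9.67 and 9.87 in the proline replicates, against 10.86 and 10.77 in the control replicates (log2 signal). All proline arrays lay below all control arrays. The fall was by 1.04 ± 0.13 on the log2 scale, 2.06-fold (adjusted p = 0.0361 in limma), in a direction that 1.34% of all genes shared at that threshold. Epop has 1 probe set, of the _s_at kind that can match several transcripts. With any 1 biological replicate left out the difference stayed between -1.14 and -0.95, and the adjusted p lay between 0.0798 and 0.159. In such fits the lone replicate of a group is assumed to vary like the other group, and 0 of all 18193 genes passed, so a lost call there says little about a single gene. Aebp2, the partner of Jarid2 in PRC2.2, measured -0.42 ± 0.14 (adjusted p = 0.174), with separated arrays too. Lcorl had the highest value, 0.41 ± 0.34 (adjusted p = 0.573). Of the histone-binding core subunits, Rbbp4 measured -0.07 ± 0.13 (adjusted p = 0.818) and Rbbp7 0.27 ± 0.14 (adjusted p = 0.378).

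Genes of PRC1, the complex that places ubiquitin on histone H2A, held 19 measured genes of 21 listed. Of these 1 rose, 0 fell and 18 did not pass, while 3.03% of all genes rose. Yaf2, a subunit of variant PRC1 that does not need H3K27me3, was at 9.45 and 9.57 in the proline replicates, against 7.69 and 7.87 in the control replicates (log2 signal). The groups lay far apart, with a log2 difference of 1.73 ± 0.13 (3.32-fold, adjusted p = 0.0246), and its other probe set gave 1.83 ± 0.12. Without 1 biological replicate the difference of Yaf2 lay between 1.64 and 1.82 and its adjusted p between 0.0516 and 0.119. Phc2, a polyhomeotic subunit, measured 0.74 ± 0.14 (adjusted p = 0.0696), and Phc3 had the lowest value of the list, -0.24 ± 0.13 (adjusted p = 0.360). The median of the PRC1 list was 0.14, and 4 of its 19 genes had all proline arrays above all control arrays, against 13.8% of all genes.

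Erasers of the polycomb marks, which counteract PRC1 and PRC2, held 6 measured genes. In limma 0 passed, against 4.36% of all genes, and 1 was under an unadjusted threshold of 0.05, against 22.1% of all genes, which is no more than the background. That gene was Asxl2, a cofactor of the H2A deubiquitinase BAP1, at -0.53 ± 0.13 (adjusted p = 0.101), and Bap1 itself measured -0.33 ± 0.17 (adjusted p = 0.360). The highest value was 0.15 ± 0.14, for Asxl1 (adjusted p = 0.613).

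Complexes that methylate lysine 4 of histone H3, the activating counterpart of polycomb marks, held 12 measured genes. In limma 0 passed, 6 were under an unadjusted threshold of 0.05, and 9 measured below 0, as did 10198 of all 18193 genes. The list median was -0.30, beside -0.03 over all genes. All 6 genes under the unadjusted threshold were lower after proline, a direction and threshold met by 9.32% of all genes. The 6 proline arrays lay below the 6 control arrays in 7 of the 12, against 10.8% of all genes. This list was chosen with earlier results of these data known, so its counts are a description only. Rbbp5 (-0.69 ± 0.14, adjusted p = 0.0715) and Ash2l (-0.58 ± 0.13, adjusted p = 0.0866) are core subunits shared by all these complexes. So are Wdr5 (-0.40 ± 0.13, adjusted p = 0.176) and Dpy30 (-0.35 ± 0.11, adjusted p = 0.170), which were named after their values were seen. The methyltransferase gene Setd1b had the lowest value, -0.88 ± 0.24 (adjusted p = 0.127), and Cxxc1 the highest, 0.14 ± 0.14 (adjusted p = 0.657).

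Genes known as polycomb targets in ES cells held 26 measured of 27 listed, 13 of them dim on average. Of the 26, 2 rose, 0 fell and 24 did not pass, while 3.03% of all genes rose, and the list median was 0.04. Eomes, a T-box regulator of mesoderm and endoderm, was at 9.02 and 9.33 in the proline replicates and at 6.68 and 6.66 in the control replicates (log2 signal), a difference of 2.51 ± 0.15 (adjusted p = 0.0246). The homeobox gene Msx1 was at 7.58 and 7.76 after proline and at 6.50 and 6.55 in controls, a difference of 1.15 ± 0.13 (adjusted p = 0.0301). That probe set is of the _s_at kind, and the other probe set of Msx1 gave 0.32 ± 0.11. With any 1 biological replicate left out, Eomes stayed between 2.35 and 2.66 (adjusted p between 0.0516 and 0.119) and Msx1 between 1.06 and 1.24 (adjusted p between 0.0570 and 0.143). With the median over its probe sets Msx1 was at 0.73 and no longer passed (adjusted p = 0.0594). Cdkn2a, a cell-cycle inhibitor locus held silent by polycomb, is dim and had the lowest value, though its arrays were separated, -0.47 ± 0.12 (adjusted p = 0.115). At an unadjusted threshold of 0.05 the list held 5 of 26 genes, 4 with higher and 1 with lower signals after proline, no larger a share than the 22.1% of all genes.

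**Figure D3:**
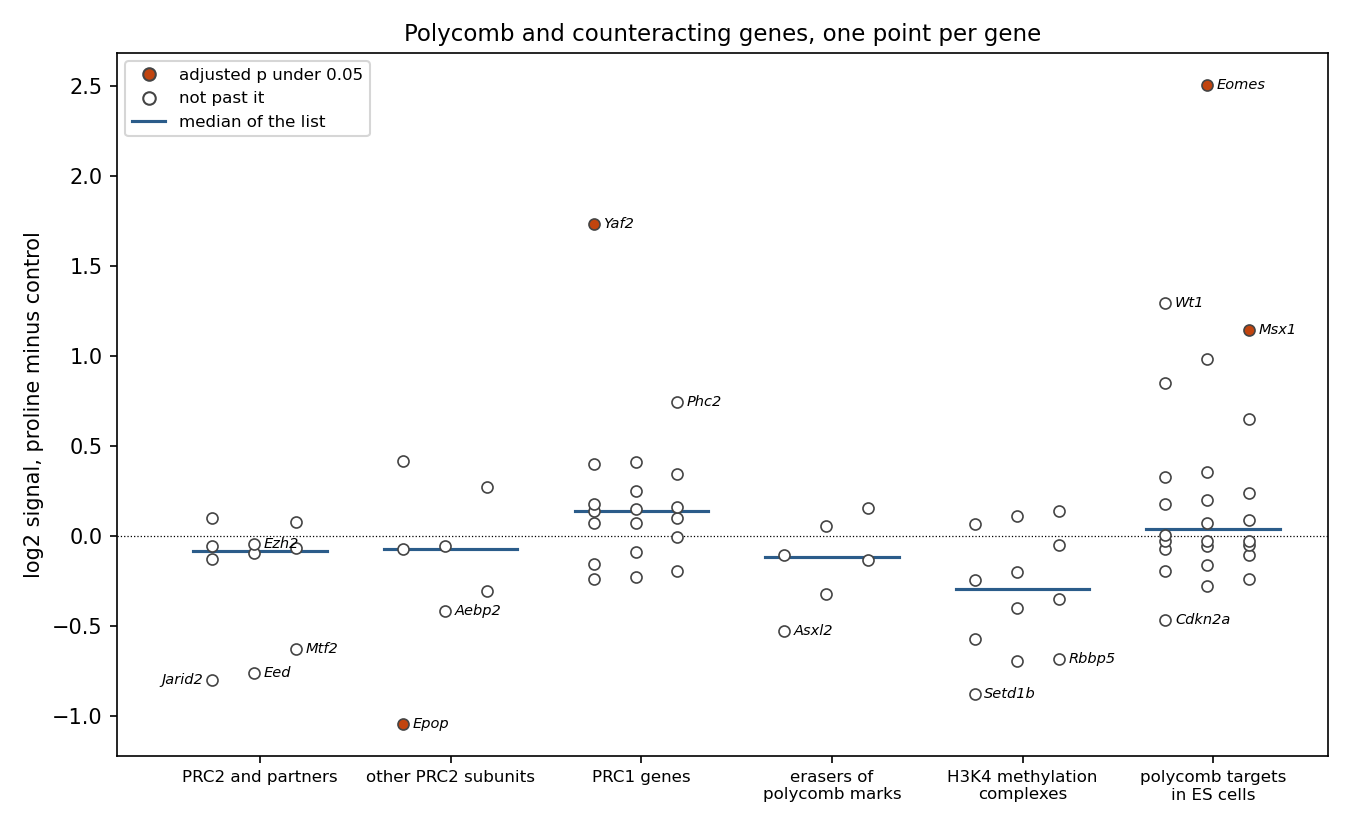
Log2 difference, proline minus control (vertical axis), of each measured gene of 6 lists, with filled points for genes past an adjusted p of 0.05 in limma, open points for the others and a line for the list median. Epop lies below 0 and Yaf2, Eomes and Msx1 above 0 among the filled points, and the list of PRC2 and partners has no filled point.

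ES cell markers were bright in both groups, and all 10 lay at or above percentile 96.1 of signal over the 12 arrays. The sum of their log2 signals ran from 119.8 to 121.7 on the proline arrays and from 124.2 to 126.6 on the control arrays. In limma 2 of them fell, Esrrb and Zfp42. Nanog, Dppa4 and Dppa5a also had all proline arrays below all control arrays, without passing. Only Lin28a measured above 0, at 0.67 ± 0.11 (adjusted p = 0.0530), with all proline arrays above all control arrays. The 8 fibroblast markers summed to between 42.6 and 47.1 after proline and between 43.0 and 46.4 in controls, with Col3a1, Postn and Lum dim. The 6 trophoblast markers summed to between 32.9 and 36.3 after proline and between 32.1 and 34.3 in controls, with Elf5 and Gata3 dim. The 6 primitive endoderm markers summed to between 33.0 and 35.2 after proline and between 31.2 and 32.8 in controls, without overlap. Dab2 accounted for most of that shift, at 1.68 ± 0.28 (adjusted p = 0.0545), while the arrays of the other 5 overlapped, and Sox17, Sox7 and Pdgfra were dim. No gene of these other lists passed. Arrays were also separated for the fibroblast marker Dcn, higher after proline at 0.77 ± 0.16 (adjusted p = 0.0769), and for the trophoblast marker Ascl2, lower at -0.59 ± 0.17 (adjusted p = 0.141). Beta-actin 5′ minus 3′ signal, which follows RNA integrity, was -0.45 ± 0.30 after proline and -0.70 ± 0.28 in controls, and poly-A spike-ins read 8.38 ± 0.37 after proline and 8.82 ± 0.27 in controls (log2, SD, n = 2 each). The 18S ribosomal RNA probe sets had the largest difference of these 3 measures, at 9.74 and 8.35 in the proline replicates, both below 10.74 and 10.04 in the control replicates, a log2 difference of -1.35. The part of these shifts in the differences of Eed, Jarid2, Mtf2 and Epop was not tested. In bulk RNA, fewer cells with a transcript and less transcript per cell cannot be told apart.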

How the data were processed

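Values were used as deposited by the authors, as log2 signal for 45101 probe sets on each of 12 arrays. The submitters' processing notes name MAS5 and RMA, and which one gave these values is not given in the sources used here. Values ran from 2.10 to 14.8, with array medians of 5.98 to 6.03. No detection calls were used.

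Gene symbols came from GEO's platform annotation (34945 with 1 symbol, 932 with several, 9160 unnamed here, 64 array controls), checked by gene ID against RefSeq GRCm38.p6, which changed 0 symbols. A gene was its probe set with the highest mean. The lettered arrays of a biological replicate were taken as repeats and averaged. The labels give no meaning for the letters and do not say whether replicates were separate cultures, so p-values measure only the spread between these samples, which may be technical. limma 3.58.1 in R 4.3.3 compared the 4 means, two-sided, with Benjamini-Hochberg adjustment over 18193 genes (2 residual and 2.60 prior degrees of freedom), and in a second fit over 45037 probe sets. With 2 biological replicates a group, precision is limited by that number. The fit was run on simulated data with planted changes larger than those of the members. That check covered the mean estimates of the planted changes and set no bound on false calls.

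The members and gene lists were chosen with earlier results of these data known. Their counts beside the shares of all genes are therefore descriptions and no independent evidence. Of each list, the text names genes past the threshold, the highest, the lowest and the 2 with the smallest p. Rbbp4, Rbbp7, Wdr5 and Dpy30 were added after their values were seen. Promoters came from RefSeq, GRCm38.p6. Alternatives were another normalization, centring, filter, choice of probe set, unit of testing or variance model, and leaving out each biological replicate. Plots used matplotlib 3.10.9.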

Additional observations from a re-analysis of the deposited data

Results flagged for a closer look

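A probe set left out by the rule, because the annotation gives it to Kdm6b and to the gene 1700064E03Rik, had higher signals after proline. It read 9.26 and 9.03 in the proline replicates, against 8.69 and 8.81 in the control replicates (log2 signal), a difference of 0.40 ± 0.14 (adjusted p = 0.252 in limma over all probe sets). Single arrays of the groups overlap, and the 3 probe sets of Kdm6b alone measured between -0.12 and 0.21. Which of the 2 genes it reads was not tested.

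For Suz12, 1 array of proline replicate 2 read 11.56, while the nearest of the other 5 proline arrays read 11.48. Among the 20 groups of 6 arrays examined for such a gap, about 1 in 20 would be marked by chance, and arrays of a biological replicate are not independent.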

How the results depend on the processing

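The call of members depended on the unit of testing and on the variance model or block. Of the 10 members, 0 passed with all replicates in the fit of 4 means, where all genes gave 794 calls. An intensity trend let 1 member pass (Eed, adjusted p = 0.0318), with 937 calls among all genes. With the 12 arrays in a random block or taken as independent, 3 of the 10 members passed (Eed, Jarid2 and Mtf2). There 3987 and 6804 of 18193 genes passed, and 19 and 28 of the 70 genes in the polycomb lists, in place of 4. Taking the arrays as independent counts repeats of 1 biological replicate as replicates. In that setting the share of members that passed was no larger than the share of all genes. With the replicate number as a block, 2 of the 10 members passed in limma (Eed, adjusted p = 0.0350, and Jarid2, adjusted p = 0.0311). In that fit 2039 of 18193 genes passed, and 7 of 70 in the lists. In the fit of probe sets with that block, 3 of the 32 member probe sets passed (1 of Eed and 2 of Jarid2). How many of all probe sets passed in it is not given here, so these 3 have no background. The labels do not say that the replicate numbers pair cultures. The shift between replicates in proline and that in controls had r = 0.338 across genes, which are not independent replicates. The median over probe sets gave 354 calls among all genes and Eed at -0.57 (adjusted p = 0.0837), and it ended the call of Msx1 (0.73, adjusted p = 0.0594), leaving 3 in the lists. Taking the probe set with the largest variance gave 0 calls among all genes and 0 in the lists in limma, with 3652 genes at an unadjusted p under 0.05. Leaving out any 1 biological replicate, with the lone sample assumed to vary like the other group, gave 0 calls among all genes, the members and the lists, with 2766 to 3676 genes at an unadjusted p under 0.05. Eed ran from -0.86 to -0.67 in those fits, Jarid2 from -1.09 to -0.52 and Mtf2 from -0.74 to -0.52. Signs turned without 1 replicate for Ezh2 (-0.23 to 0.14, with 0.007 without proline replicate 2), Phf19 (-0.18 to 0.04, the upper end being 0.038 without control replicate 2), Bmi1 (-0.17 to 0.37) and Kdm6b (-0.16 to 0.31). Quantile normalization, median centring and the filter on dim signals left the counts of members and lists at 0 and 4. The causes of these shifts were not tested. In the limma fit of all probe sets, the brightest probe sets of Epop, Yaf2 and Msx1 had adjusted p of 0.0650, 0.0517 and 0.0574. The brighter probe set of Eomes still passed there (adjusted p = 0.0491), and its other probe set did not (adjusted p = 0.0553). Dim probe sets limit what can be said of the second probe sets of Eed and Bmi1.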
